A study of Mus musculus with 21 samples.

Results

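The genes described here are 45 genes of mitosis, spindle and kinetochore: cyclins and their kinase, mitotic kinases, checkpoint genes, kinetochore genes, the chromosomal passenger complex, kinesins, genes of spindle and cytokinesis, and 3 further genes of chromosome structure and proliferation. The list takes them by name, 1 row per symbol. On the arrays, 44 of the 45 were measured under their symbol, among 19505 genes in all. *Ccnb1* is not analysed here.

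RNA came from wildtype mouse T cells of the spleen that were activated with CD3/CD28 Dynabeads in complete RPMI with 2-ME and kept for 48 h in 1 of 3 media. CD8+ cells were then isolated again by magnetic separation (MACS). For 7 arrays (AML) the culture medium was the sterile-filtered supernatant of WEHI-3B cells, a mouse myelomonocytic leukaemia line. For 7 arrays (DC) it was the supernatant of dendritic cells grown from bone marrow, and for 7 arrays (fresh) it was unused medium. The AML medium thus stands for 1 leukaemia line, and the labels do not say whether replicates shared a mouse or a batch of supernatant, so p-values measure the spread between these samples. One label field names a reticular cell in place of T cells, while all others name CD8+ T cells. The values are log2 levels per gene, and the array medians ranged over 5.23 to 5.40.

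Mitosis genes are transcribed late in the cell cycle. Cyclins A and B with *Cdk1* drive entry into mitosis, Aurora and Polo kinases build the spindle, kinetochores tie chromosomes to it, and the checkpoint holds back the anaphase-promoting complex until all are attached. In activated CD8+ T cells, which divide quickly, these genes are among the usual signs of proliferation, and their RNA falls when cells leave the cycle or spend less of it in G2 and M. An array of RNA pooled from the isolated cells cannot tell fewer cells in mitosis apart from less mitotic RNA per cell.

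Promoters of such genes often carry a cell cycle homology region (CHR, TTTGAA), where complexes with the MuvB core bind: DREAM in resting cells, and with B-MYB and FOXM1 in dividing ones. Next to it often lie CCAAT boxes, the sites of NF-Y. Promoter stretches from RefSeq (GRCm38.p6) are shown for 6 genes, each with 120 bases before the annotated start and 30 from it on. *Cenpa*, the gene with a called difference, and *Hmmr*, *Ccnb2* and *Cdk1* were lowest in AML replicates 4 and 5, while *Top2a* and *Mki67* were not set apart there in the same way. Capitals mark the CHR, its variant TTCGAA and CCAAT on either strand.
Cenpa, chr5:30666766-30666915, plus strand: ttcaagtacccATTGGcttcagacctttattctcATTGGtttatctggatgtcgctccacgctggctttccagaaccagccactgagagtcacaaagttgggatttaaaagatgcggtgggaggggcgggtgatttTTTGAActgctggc
Hmmr, chr11:40733408-40733557, minus strand: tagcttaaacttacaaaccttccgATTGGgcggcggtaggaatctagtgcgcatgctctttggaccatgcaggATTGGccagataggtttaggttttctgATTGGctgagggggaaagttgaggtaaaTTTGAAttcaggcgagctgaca
Ccnb2, chr9:70421525-70421674, minus strand: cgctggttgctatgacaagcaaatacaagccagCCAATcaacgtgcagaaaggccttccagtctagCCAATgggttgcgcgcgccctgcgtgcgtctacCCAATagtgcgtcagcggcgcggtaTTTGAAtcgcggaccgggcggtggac
Cdk1, chr10:69352883-69353032, minus strand: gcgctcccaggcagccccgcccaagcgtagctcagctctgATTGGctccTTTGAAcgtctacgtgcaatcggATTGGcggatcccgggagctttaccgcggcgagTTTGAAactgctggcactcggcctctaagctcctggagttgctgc
Top2a, chr11:99024160-99024309, minus strand: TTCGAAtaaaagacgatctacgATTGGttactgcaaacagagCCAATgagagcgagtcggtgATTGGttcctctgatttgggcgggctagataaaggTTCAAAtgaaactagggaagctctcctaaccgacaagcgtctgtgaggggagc
Mki67, chr7:135716350-135716499, minus strand: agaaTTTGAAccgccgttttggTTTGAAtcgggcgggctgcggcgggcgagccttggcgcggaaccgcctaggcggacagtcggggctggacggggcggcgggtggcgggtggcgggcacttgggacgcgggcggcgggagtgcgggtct

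Counted with the annotated start base as 1 and no position 0, the CHR began at position 17 in *Cenpa*, 9 in *Hmmr* and 5 in *Ccnb2*. Each of these 3 windows also held at least 2 CCAAT boxes upstream of the start. *Cdk1* had CHR matches beginning at -71 and -15 and CCAAT boxes at -80 and -48. *Top2a* had 1 CHR on the opposite strand at -23, the variant at -120 and CCAAT boxes at -98, -78 and -58. *Mki67* had 2 CHR matches at -116 and -98 with no CCAAT box in the window. Upstream of its window CCAAT boxes began at -188, -166 and -141. In the printed windows 0 bases lay in 2 matches.

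RefSeq gave promoters of 300 bases (250 before and 50 after the start) for 38 of the 45 genes, 41 promoters in all. In 18 of the 41 the start was the upstream end of the gene as annotated in RefSeq, so motif positions depend on the start used. The CHR, searched on both strands, was found in 29 of the 38 genes, 76.3%, and in 78.0% of their 41 promoters, against 17.9% of all 32851 promoters. Its variant was found in 3 genes, 7.89%, against 1.56% of all promoters. CCAAT was found in 28 genes, 73.7%, against 37.4% of all promoters. A CHR or its variant together with CCAAT was found in 25 genes, 65.8%, against 7.52% of all promoters. The E2F words TTCCCGC and TTGGCGC were found in 0 and 5 of the 38 genes, 0% and 13.2%, against 4.6% and 2.45% of all promoters. A match describes these letters only and does not show that a factor binds there.

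**Figure D1:**
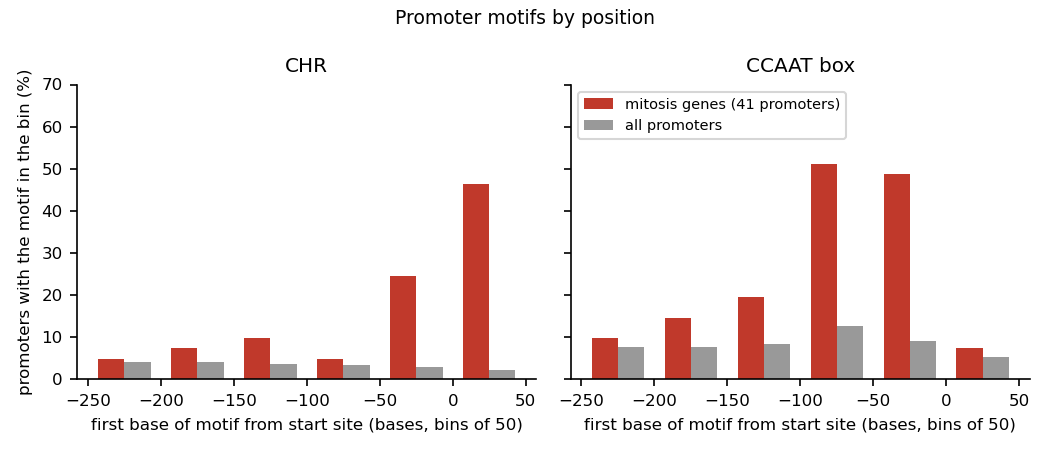
Share of promoters with a CHR (left) or CCAAT box (right) whose first base lies in each 50-base bin, in percent, for the 41 promoters of mitosis genes (red) and all promoters (grey). A CHR beginning in the 50 bases after the start was found in 46.3% of the mitosis promoters, against 2.25% of all, and CCAAT from -100 to -50 in 51.2%, against 12.5% of all.

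AML replicates 4 and 5 stood apart from all others in these genes, and each result that rests on them is given with and without them. The mean over the 44 genes, taken as log2 level minus the fresh mean, was -0.49 in AML replicate 4 and -0.46 in AML replicate 5. In AML replicates 1, 2, 3, 6 and 7 it was 0.05, 0.05, 0.02, 0.01 and -0.06. The DC arrays ranged over -0.03 to 0.08 and the fresh arrays over -0.11 to 0.10. The other 5 AML arrays therefore lay inside the span of the fresh arrays, and replicates 4 and 5 lay below every other array. Signed values of single genes in these 2 arrays are on the same scale, log2 level minus the fresh mean.

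In AML replicate 4, 37 of the 44 genes lay below all 7 fresh arrays and 0 above, where 17.9% of all genes on that array lay below. In AML replicate 5 it was 34 below and 1 above, where 20.8% of all genes lay below. In the other AML arrays 2 to 8 genes lay below and 1 to 11 above, where 11.8% to 14% and 9.48% to 13.7% of all genes did, and in the DC arrays 3 to 10 lay below and 1 to 11 above, where 10.7% to 15.1% and 10.3% to 12.6% of all genes did. Both replicates were below all 7 fresh arrays in 34 genes, 77.3% of the 44, where 11.7% of all genes were. In 33 of these genes both were also below all 19 other arrays. The share of all genes for that count was not computed, so it is given as a description only. The remaining 10 were *Bub1b*, *Nuf2* and *Kif20b*, with 1 of the 2 arrays below, and *Pttg1*, *Spc24*, *Spc25*, *Kif11*, *Kif4*, *Top2a* and *Mki67*, with neither.

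**Figure D2:**
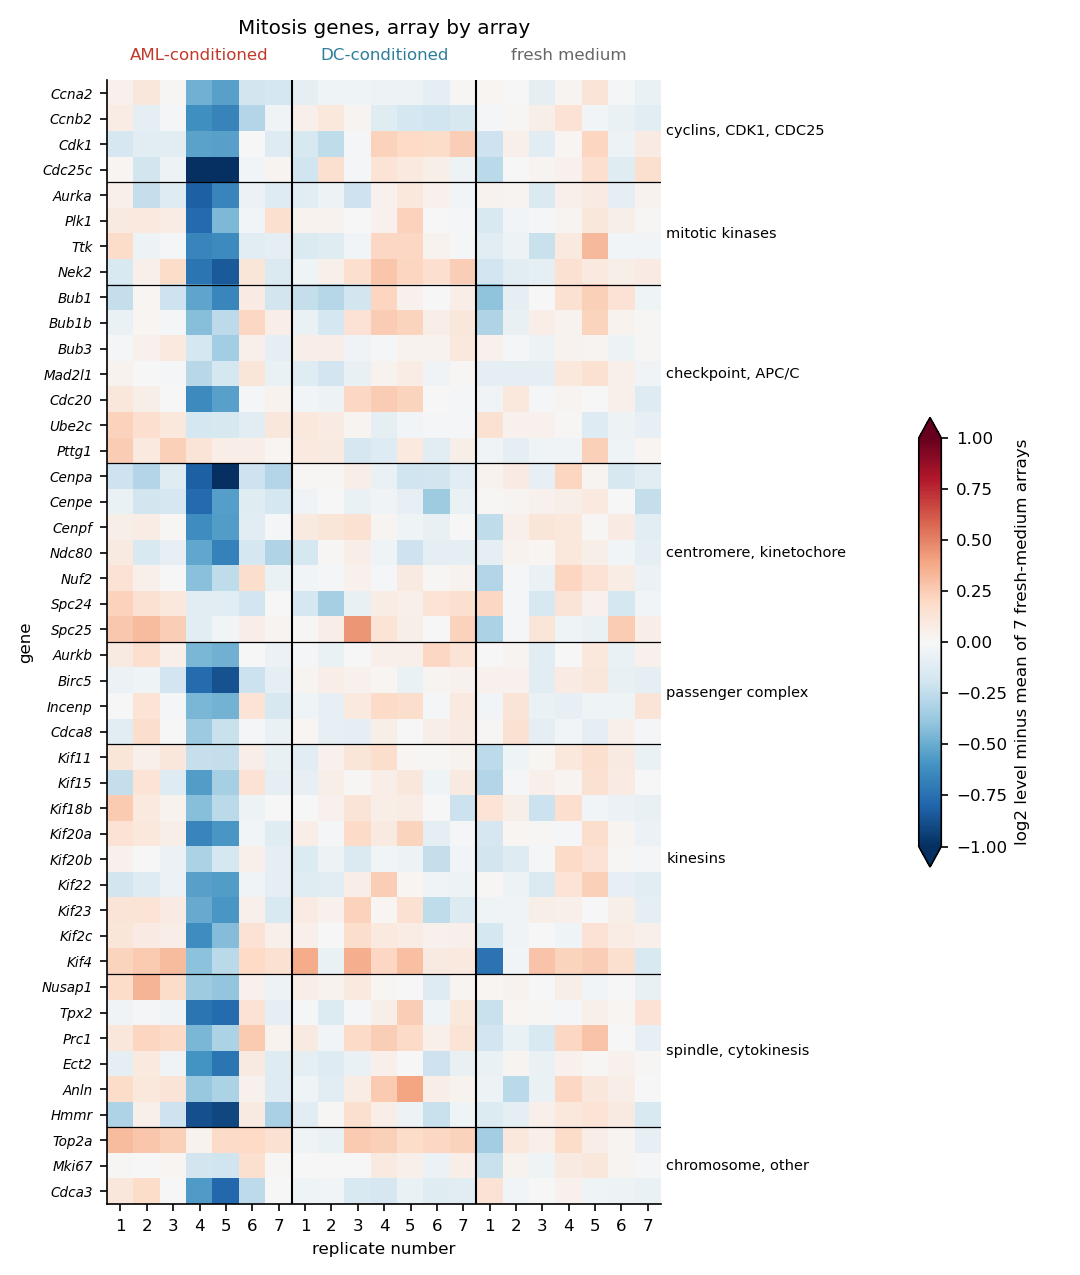
Log2 level of each of the 44 genes minus its mean over the 7 fresh arrays, one column per array and one row per gene, grouped by role. The columns of AML replicates 4 and 5 are low through most rows, with means of -0.49 and -0.46, and the other AML, DC and fresh columns lie near 0.

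Across the groups of 7, *Cenpa* was the only gene called in AML against fresh medium (limma, Benjamini-Hochberg adjustment over all genes, adjusted p under 0.05). That is 1 gene lower and 0 higher of 44, where 2.77% of all genes were called in either direction, 1.48% lower and 1.3% higher. The difference was below 0 in 37 of the 44 genes, where 54.4% of all genes were below 0. The median difference was -0.12, against -0.01 over all genes, and the differences ranged over -0.43 to 0.20. At an unadjusted p under 0.05 there were 12 genes of 44, where 15.9% of all genes passed. The spread of the AML group was wider than usual in these genes: the median SD was 0.265 in AML, 0.108 in DC and 0.111 in fresh arrays, against 0.165, 0.158 and 0.177 over all genes.

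Without AML replicates 4 and 5 the median difference was 0.02, with 18 genes below 0 and 26 above, and 28 of the 44 lay within 0.1 of 0. The differences then ranged over -0.22 for *Cenpa* to 0.24 for *Top2a*. No gene of the 44 was called (limma, lowest adjusted p 0.210), with 2 at an unadjusted p under 0.05, and 0.569% of all genes were called in that fit.

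**Figure D3:**
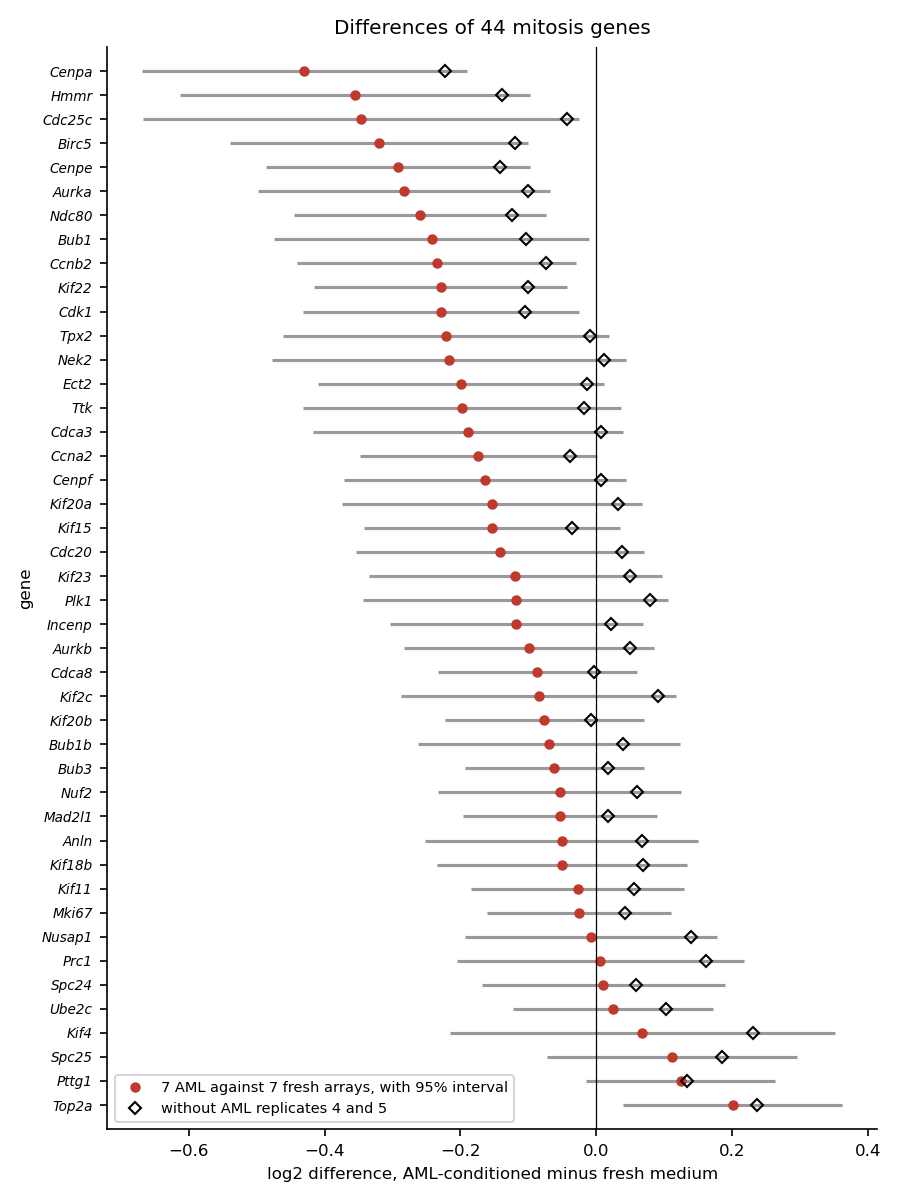
Log2 difference of AML minus fresh medium for the 44 genes (red points, with 95% confidence intervals of the fit) and the same difference without AML replicates 4 and 5 (open diamonds). The median moves to 0.02 without these arrays, against -0.12 with them, and *Cenpa* stays lowest in both.

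The 4 measured genes of the class of cyclins, *Cdk1* and its activator were all below the fresh range in both AML replicates 4 and 5, and none was called. *Ccnb2*, a B-type cyclin, had 10.14, 10.71 and 10.88 as lowest, median and highest log2 level in AML arrays, 10.61, 10.69 and 10.91 in DC arrays, and 10.70, 10.79 and 10.95 in fresh arrays. AML replicates 4 and 5, at 10.19 and 10.14, were the lowest of the 21 arrays, and replicate 6, at 10.51, was also below the fresh range. So were 4 of the 7 DC arrays, where 4.84% of all genes were in at least 4. The difference of AML minus fresh was -0.24 (SE 0.10, limma adjusted p = 0.233). *Cdk1*, the kinase that A and B cyclins activate, had 8.29, 8.70 and 8.83 in AML arrays, 8.58, 9.02 and 9.08 in DC arrays, and 8.63, 8.85 and 9.05 in fresh arrays. Only replicates 4 and 5, both at 8.29, left the fresh range among the AML arrays, and the difference was -0.23 (SE 0.10, limma adjusted p = 0.240). *Cdc25c*, a phosphatase that removes the inhibitory phosphates of *Cdk1*, had the deepest values of all 44 genes in AML replicate 4. Its level minus the fresh mean was -1.20 there and -1.01 in replicate 5, while the other 5 AML arrays stayed within the fresh range. Its difference over all 7 was -0.35 (SE 0.16, limma adjusted p = 0.269). *Ccna2*, cyclin A2, was at -0.48 and -0.54 in replicates 4 and 5, and 2 of the other 5 AML arrays were also below the fresh range. Of all genes, 7.65% were below it in at least 4 of the 7 AML arrays.

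The mitotic kinases *Aurka*, *Plk1*, *Ttk* and *Nek2* were likewise low in both arrays in 4 of 4 cases, and none was called across the groups. Their mean was -0.75 in AML replicate 4 and -0.65 in replicate 5 on the log2 scale against fresh medium. The other 19 arrays ranged over -0.12 to 0.19. *Aurka*, the Aurora kinase of centrosomes and spindle poles, had 8.0, 8.69 and 8.87 in AML arrays, 8.61, 8.79 and 8.93 in DC arrays, and 8.67, 8.85 and 8.90 in fresh arrays. Its difference of AML minus fresh was -0.28 (SE 0.10, limma adjusted p = 0.156), and replicates 4 and 5 stood at 8.0 and 8.16. *Plk1*, the Polo kinase, had a difference of -0.12 (limma adjusted p = 0.661), with levels minus the fresh mean of -0.78 and -0.45 in these 2 arrays and 0 of the other 5 AML arrays below the fresh range. *Nek2*, a centrosomal kinase, was at -0.73 and -0.84, and *Ttk*, the checkpoint kinase MPS1, was at -0.66 and -0.63. Their differences over all 7 arrays were -0.22 and -0.20 (limma adjusted p = 0.426 and 0.416). In DC medium *Nek2* lay above all fresh arrays in 5 of 7 arrays, where 0.851% of all genes were in at least 5.

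Of the 7 checkpoint genes and genes of the anaphase-promoting complex, 5 were below the fresh range in both AML replicates 4 and 5, and the mean of the class was -0.30 in each. *Bub1*, a checkpoint kinase at kinetochores, had 8.68, 9.13 and 9.42 in AML arrays, 9.05, 9.34 and 9.55 in DC arrays, and 8.93, 9.34 and 9.57 in fresh arrays. Its difference was -0.24 (SE 0.11, limma adjusted p = 0.289). *Cdc20*, the activator of the complex that the checkpoint restrains, was at -0.63 and -0.54 in replicates 4 and 5. *Ube2c*, the ubiquitin-conjugating enzyme that serves the complex, was at -0.18 and -0.16. *Mad2l1*, the checkpoint protein that binds CDC20, was at -0.28 and -0.18. *Bub3*, the partner of BUB1, was at -0.17 and -0.34, while 3 of the other 5 AML arrays lay above the fresh range. *Bub1b*, which encodes BUBR1, was at -0.42 and -0.26, and only replicate 4 was below the fresh range. *Pttg1*, which encodes securin, the inhibitor of separase, was at 0.13 and 0.07, inside the fresh range in both, and its difference over all 7 arrays was 0.12 (limma adjusted p = 0.385).

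*Cenpa* encodes the histone H3 variant that marks centromeres, and it is the gene with the lowest difference of the 44. Its level in AML replicates 1 to 7 was 10.26, 10.17, 10.34, 9.64, 9.39, 10.25 and 10.17. In DC replicates 1 to 7 it was 10.47, 10.47, 10.53, 10.40, 10.26, 10.28 and 10.35, and in fresh replicates 1 to 7 it was 10.50, 10.55, 10.38, 10.67, 10.49, 10.30 and 10.35. In 6 of 7 AML arrays *Cenpa* was below all 7 fresh arrays, which 1.5% of all genes were in at least 6 arrays, and replicate 3 alone reached into the fresh range. The means were 10.03 ± 0.37 in AML, 10.40 ± 0.10 in DC and 10.46 ± 0.13 in fresh arrays (SD, n = 7 each). The difference of AML minus fresh was -0.43 (SE 0.12), 1.35-fold lower, with a limma adjusted p of 0.0438.

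The *Cenpa* call depended on single arrays. Leaving out 1 array at a time, it was lost in 12 of 21 fits, namely without AML replicate 2, 4 or 5, DC replicate 2, 4, 5 or 7, or fresh replicate 1, 2, 3, 4 or 5, with differences of -0.48 to -0.32 and limma adjusted p of 0.0268 to 0.113. Without both AML replicates 4 and 5 the difference was -0.22 (limma adjusted p = 0.210), and with only the AML and fresh arrays in the fit, whose spread is wider, the adjusted p was 0.110.

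The other kinetochore genes differed in how they followed. Both AML replicates 4 and 5 were below the fresh range in 4 of the 7 genes: *Cenpa*, *Cenpe*, *Cenpf* and *Ndc80*. *Cenpe*, a kinesin of the kinetochore, was at -0.78 and -0.55 in these arrays and within the fresh range in the other 5, with a difference over all 7 of -0.29 (SE 0.09, limma adjusted p = 0.0969). *Cenpf*, a large protein of the outer kinetochore, was at -0.62 and -0.56, with a difference of -0.16 (limma adjusted p = 0.458). *Ndc80* encodes a subunit of the complex that binds microtubules, and it was below the fresh range in 5 of 7 AML arrays, where 4.08% of all genes were in at least 5. Its levels in AML replicates 1 to 7 were 9.33, 9.09, 9.17, 8.73, 8.57, 9.07 and 8.94, and in fresh arrays 9.15, 9.26 and 9.35 as lowest, median and highest. Its difference was -0.26 (limma adjusted p = 0.123), and among fits that left out 1 array it passed only without AML replicate 1 (-0.32, limma adjusted p = 0.0487). Its 3 partners in the complex did not share these values: *Nuf2*, *Spc24* and *Spc25* had differences of -0.05, 0.01 and 0.11, with limma adjusted p of 0.836, 0.975 and 0.596. In replicates 4 and 5 *Nuf2* was at -0.42 and -0.26, *Spc24* at -0.11 and -0.10, and *Spc25* at -0.11 and -0.03.

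The 4 genes of the chromosomal passenger complex, which corrects wrong attachments and takes part in cytokinesis, were each below the fresh range in both replicates, with a mean of -0.51 in each. *Birc5* encodes survivin, a subunit that helps place it at the inner centromere. It had 8.74, 9.42 and 9.57 in AML arrays, 9.54, 9.64 and 9.68 in DC arrays, and 9.51, 9.65 and 9.72 in fresh arrays. Besides replicates 4 and 5, at 8.85 and 8.74, AML replicates 3 and 6 at 9.42 and 9.40 were below the fresh range. At least 4 AML arrays were below it in 7.65% of all genes. The difference for *Birc5* was -0.32 (SE 0.11, limma adjusted p = 0.110). *Aurkb*, the kinase of the complex, had 9.85, 10.32 and 10.50 in AML arrays, 10.26, 10.38 and 10.54 in DC arrays, and 10.22, 10.33 and 10.43 in fresh arrays. Here replicates 4 and 5, at 9.87 and 9.85, were the only AML arrays below the fresh range. The difference of -0.10 (SE 0.09, limma adjusted p = 0.653) became 0.05 without them. *Incenp*, the scaffold, was at -0.46 and -0.47, and *Cdca8*, which encodes borealin, at -0.36 and -0.23, with differences over all 7 arrays of -0.12 and -0.09 (limma adjusted p = 0.581 and 0.607).

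Of the 9 kinesins, 6 were below the fresh range in both replicates 4 and 5, and the class mean was -0.47 and -0.38. *Kif22*, a chromosome arm kinesin, had 8.17, 8.59 and 8.69 in AML arrays, 8.60, 8.69 and 8.97 in DC arrays, and 8.57, 8.67 and 8.96 in fresh arrays. Replicates 4 and 5, at 8.18 and 8.17, were the lowest of all, and the difference was -0.23 (SE 0.09, limma adjusted p = 0.193). *Kif20a*, a kinesin of the central spindle, was at -0.66 and -0.58 in replicates 4 and 5. *Kif11*, which pushes the spindle poles apart, was at -0.23 and -0.24 and stayed within the fresh range. *Kif2c*, which takes microtubule ends apart, was at -0.62 and -0.43, and *Kif23*, of the central spindle, at -0.50 and -0.58. *Kif15*, a spindle kinesin, was at -0.56 and -0.33, and *Kif18b*, which acts on astral microtubules, at -0.43 and -0.27. *Kif20b* was at -0.32 and -0.18, below the fresh range in replicate 4 only. *Kif4*, a chromosome kinesin, was at -0.41 and -0.27, yet inside a fresh range that reached down to 7.66 in fresh replicate 1.

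All 6 genes of spindle and cytokinesis were below the fresh range in both replicates, with means of -0.57 in each. *Hmmr*, a spindle assembly factor, had 9.15, 9.51, 9.25, 8.57, 8.54, 9.54 and 9.13 in AML replicates 1 to 7. The lowest, median and highest were 9.23, 9.41 and 9.62 in DC arrays and 9.30, 9.50 and 9.59 in fresh arrays. AML replicates 2 and 6 lay within the fresh range and the other 5 below it, where 4.08% of all genes were in at least 5. The difference was -0.36 (SE 0.13, limma adjusted p = 0.132), and among fits that left out 1 array it passed only without AML replicate 6 (-0.43, limma adjusted p = 0.0444). *Tpx2*, an activator of Aurora A on the spindle, was at -0.73 and -0.77 in replicates 4 and 5. *Ect2*, an activator of RhoA in cytokinesis, was at -0.60 and -0.73, with 2 of the other 5 AML arrays below the fresh range and 2 above it. In at least 4 AML arrays 7.65% of all genes were below that range. In DC medium 5 of the 7 arrays were below that range and 1 above it, where 1.59% of all genes were below in at least 5. *Prc1*, which bundles the central spindle, was at -0.46 and -0.31, and *Anln*, which encodes anillin of the contractile ring, at -0.38 and -0.31. *Nusap1*, which binds spindle microtubules, was at -0.36 and -0.39 there, whereas 3 of the other 5 AML arrays lay above the fresh range.

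The last class holds *Cdca3*, *Top2a* and *Mki67*, of which 1 was low in both arrays. *Cdca3*, a trigger of mitotic entry, was at -0.57 and -0.79 in AML replicates 4 and 5, below the fresh range in both. In DC medium 5 of the 7 arrays were also below it, where 1.59% of all genes were in at least 5. *Top2a*, the topoisomerase that untangles sister chromatids, had 9.82, 9.98 and 10.10 in AML arrays, 9.72, 9.99 and 10.04 in DC arrays, and 9.44, 9.83 and 9.97 in fresh arrays. It had the highest difference of the 44, 0.20 (SE 0.08, limma adjusted p = 0.185), and lay above all fresh arrays in 5 of 7 AML arrays, where 3.46% of all genes were in at least 5. It also lay above all fresh arrays in 5 of 7 DC arrays, where 0.851% of all genes were in at least 5. *Mki67*, the proliferation marker Ki-67, had 11.23, 11.45 and 11.59 in AML arrays, 11.37, 11.44 and 11.53 in DC arrays, and 11.21, 11.46 and 11.55 in fresh arrays. Its difference was -0.03 (SE 0.07, limma adjusted p = 0.909), and replicates 4 and 5, the lowest AML arrays at 11.25 and 11.23, stayed above the lowest fresh array.

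**Figure D4:**
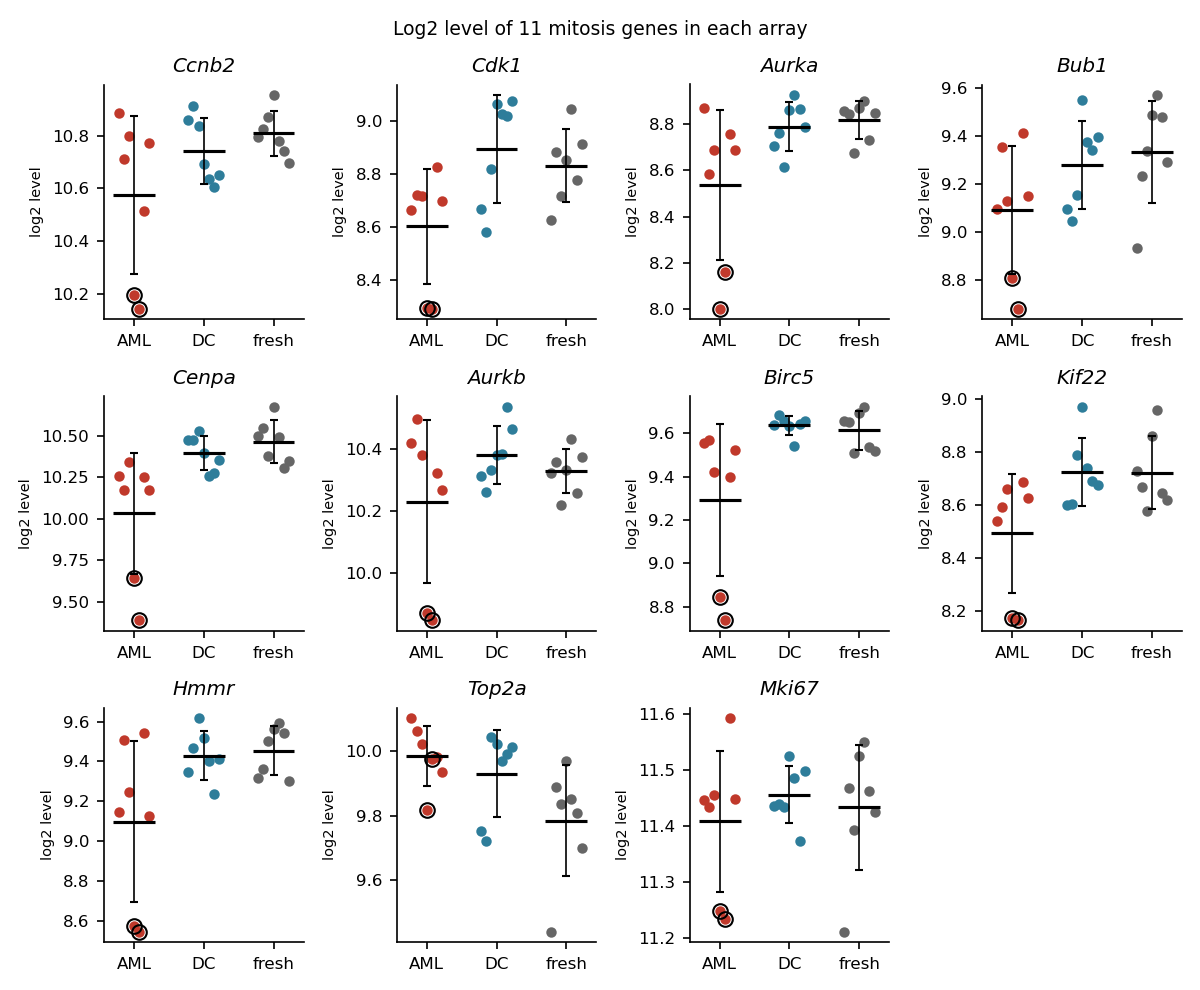
Log2 level of 11 mitosis genes in each array, with AML, DC and fresh medium from left to right, bars for mean and SD over 7 arrays, and rings around AML replicates 4 and 5. The ringed arrays lie below all others for *Cenpa*, at 9.64 and 9.39, and for *Birc5*, at 8.85 and 8.74, but not below the fresh range for *Top2a* and *Mki67*. Each panel has its own axis, which does not start at 0.

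DC-conditioned medium was set against the same fresh arrays. None of the 44 genes was called (limma, lowest adjusted p 0.810) and 0 had an unadjusted p under 0.05, where 0% of all genes were called and 6.41% passed the unadjusted threshold. The median difference was 0.02, against -0.01 over all genes, with 14 genes below 0, where 54.8% of all genes were. The 95% confidence intervals of all 44 genes lay within 0.5 log2 of 0, the lowest bound being -0.33 for *Cdca3* and the highest 0.48 for *Kif4*. The difference of DC minus fresh was -0.07 for *Cenpa*, -0.03 for *Hmmr*, 0.02 for *Birc5*, 0.06 for *Cdk1* and 0.15 for *Top2a*. Within the DC arrays *Cdk1* had 2 sets of values, 8.67, 8.58 and 8.82 in replicates 1 to 3 and 9.06, 9.03, 9.02 and 9.08 in replicates 4 to 7. The labels name no batch for these sets.

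AML against DC medium shares its arrays with both other comparisons. None of the 44 genes was called (limma, lowest adjusted p 0.0930, *Birc5*), where 2.39% of all genes were, 1.26% lower and 1.13% higher. The difference was below 0 in 39 genes, where 48.1% of all genes were, with a median of -0.15 against 0.01 over all genes. At an unadjusted p under 0.05 there were 11 genes, where 14.3% of all genes passed. *Birc5* had a difference of -0.34, *Cenpa* of -0.36 (limma adjusted p = 0.103), *Hmmr* of -0.33 (adjusted p = 0.193), *Cdk1* of -0.29 (adjusted p = 0.128) and *Top2a* of 0.05 (adjusted p = 0.834). Without AML replicates 4 and 5 the median was -0.01, with 24 genes below 0.

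Other genes of the cycle were read from lists chosen by name. Of 20 measured further spindle and cytokinesis genes, 0 were called in AML against fresh medium. Their mean was -0.57 and -0.55 in AML replicates 4 and 5, against -0.11 to 0.10 in the other 19 arrays, with 18 and 15 genes below the fresh range. *Tacc3*, which stabilises microtubules at the spindle, had a difference of -0.24 (limma adjusted p = 0.181), which passed without AML replicate 6 (-0.30, limma adjusted p = 0.0495), as did *Shcbp1* of that list (-0.36, limma adjusted p = 0.0497). The kinesin *Kif14* had -0.30 (limma adjusted p = 0.193). Of 11 condensin, cohesin and separase genes, 0 were called, and their mean was -0.30 and -0.28 in the 2 arrays, against -0.12 to 0.08 in the other 19.

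Of 32 further kinetochore genes, 1 fell, 0 rose and 31 did not pass the test in AML against fresh medium. The 1 was *Hjurp*, the chaperone that loads CENP-A onto centromeres. It had 9.97, 10.34 and 10.44 in AML arrays and 10.46, 10.54 and 10.68 in fresh arrays, so that all 7 AML arrays lay below all 7 fresh arrays, as 0.441% of all genes did. Its means were 10.25 ± 0.20 in AML, 10.49 ± 0.06 in DC and 10.55 ± 0.07 in fresh arrays (SD, n = 7 each). The difference was -0.30 (SE 0.07) with a limma adjusted p of 0.0273. Without AML replicates 4 and 5, which were at 9.97 both, the difference was -0.19 (limma adjusted p = 0.194), and the call was also lost without AML replicate 4 or 5 or fresh replicate 2 alone. It was lost as well with only the AML and fresh arrays in the fit (limma adjusted p = 0.0830), with median centring (0.0550), and with replicates 1 to 3 or 4 to 7 alone (0.244 and 0.156). *Mis18a* and *Oip5*, which prepare centromeres for CENP-A loading, had differences of -0.20 (limma adjusted p = 0.150) and -0.06 (limma adjusted p = 0.896). The mean of the 32 genes, minus the fresh mean, was -0.36 in the lowest AML array and -0.27 in the lowest fresh array. The 19 arrays other than AML replicates 4 and 5 ranged over -0.27 to 0.17.

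Among 21 genes of mitotic entry and exit, 1 rose, 1 fell and 19 did not pass. Their mean, minus the fresh mean, was -0.28 in the lowest AML array, against -0.15 to 0.14 in the 19 arrays other than AML replicates 4 and 5. *Pkmyt1*, a kinase that inhibits CDK1, had 5.86, 6.21 and 6.58 in AML arrays, 5.74, 6.02 and 6.19 in DC arrays, and 5.61, 5.96 and 6.01 in fresh arrays. The fresh levels of *Pkmyt1* lay not far above the array medians of 5.23 to 5.40, and detection was not assessed. Its difference was 0.35 (SE 0.09, limma adjusted p = 0.0406), and 6 of 7 AML arrays lay above all fresh arrays, as 1.46% of all genes did in at least 6, with replicate 4 the lowest at 5.86 and replicate 5 the highest at 6.58. *Fzr1*, which encodes CDH1, the activator of the anaphase-promoting complex in late mitosis and G1, had 8.78, 9.24 and 9.37 in AML arrays, 9.33, 9.41 and 9.55 in DC arrays, and 9.25, 9.49 and 9.68 in fresh arrays. Its difference was -0.33 (SE 0.09, limma adjusted p = 0.0432), with 4 of 7 AML arrays below all fresh arrays, as 7.65% of all genes were in at least 4. Without AML replicates 4 and 5 neither was called, with 0.35 (limma adjusted p = 0.0553) for *Pkmyt1* and -0.20 (limma adjusted p = 0.294) for *Fzr1*. Leaving out 1 array ended the *Pkmyt1* call in 10 of 21 fits (fresh replicates 1 to 6 and AML replicates 1, 2, 3 and 5; limma adjusted p of 0.0191 to 0.115 over the 21). It ended the *Fzr1* call in 13 (DC replicates 2, 5, 6 and 7, fresh replicates 1, 2, 4, 5 and 7, and AML replicates 1, 2, 4 and 5; limma adjusted p of 0.0226 to 0.123). With only the AML and fresh arrays in the fit both calls were lost (limma adjusted p of 0.0819 for *Pkmyt1* and 0.110 for *Fzr1*), as they were with replicates 1 to 3 alone (0.0592 and 0.349) and 4 to 7 alone (0.278 and 0.167). The *Fzr1* call was also lost with median centring (0.0817), array weights (0.111) and the replicate number as a block (0.0621). *Cdc16*, a subunit of the anaphase-promoting complex, had a difference of -0.24 (limma adjusted p = 0.0640), and it passed with quantile normalization (0.0482), the filter on low genes (0.0497), a term for replicates 1 to 3 against 4 to 7 (0.0454) and without AML replicate 6 (0.0497).

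Of 31 S phase genes, 1 fell, 0 rose and 30 did not pass. *Gins4*, a subunit of the replicative helicase, had 8.77, 8.83 and 9.01 in AML arrays, 8.93, 8.99 and 9.09 in DC arrays, and 8.96, 9.06 and 9.17 in fresh arrays, a difference of -0.21 (SE 0.06, limma adjusted p = 0.0477). The call was lost without AML replicates 4 and 5 (-0.19, limma adjusted p = 0.212) and in 18 of 21 fits that left out 1 array, all but those without fresh replicate 3 or AML replicate 6 or 7 (limma adjusted p of 0.0204 to 0.107 over the 21). It was also lost with only the AML and fresh arrays (0.113), median centring (0.120), array weights (0.0546), and replicates 1 to 3 or 4 to 7 alone (0.317 and 0.188). The S phase mean was -0.28 and -0.21 in AML replicates 4 and 5, against -0.23 to 0.19 in the other 19 arrays. These 19 fell into 2 sets by replicate number, at -0.23 to -0.05 in the 9 arrays of replicates 1 to 3 and 0.04 to 0.19 in the 10 of replicates 4 to 7. AML replicates 4 and 5 both lay below all the others of replicates 4 to 7, and replicate 4 also below all of replicates 1 to 3. Of 19 G1 cyclins and inhibitors, 0 were called, and their mean in replicates 4 and 5 was -0.08 and -0.10. That was inside the range of the 9 arrays of replicates 1 to 3, -0.11 to 0.06, and below all 10 others of replicates 4 to 7, -0.06 to 0.10. *Ccng2*, a cyclin linked to arrest, had the lowest adjusted p of that list, with a difference of -0.46 (SE 0.13, limma adjusted p = 0.0526), and it passed without AML replicate 1, 3, 6 or 7 (limma adjusted p of 0.0296 to 0.0465). It had 9.69, 10.71 and 10.80 in AML arrays, 10.71, 10.84 and 10.99 in DC arrays, and 10.75, 10.93 and 11.00 in fresh arrays, with replicates 4 and 5 at 10.03 and 9.69. With all 21 arrays *Ccng2* also passed with quantile normalization (0.0390), the filter on low genes (0.0445), the replicate number as a block (0.0333) and the term for replicates 1 to 3 against 4 to 7 (0.0270). Of this list the block called 1 lower, *Ccng2*, and 1 higher, the kinase *Cdk6* (0.62, limma adjusted p = 0.0240, and 0.144 without the block). The term for the 2 sets called 2 higher and 2 lower, adding *Btg1*, which restrains growth, at 0.34 (0.0382) and *Cdkn1b*, which encodes the inhibitor p27, at -0.30 (0.0478). In DC against fresh and in AML against DC medium, 0 genes of these 6 lists were called.

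**Figure D5:**
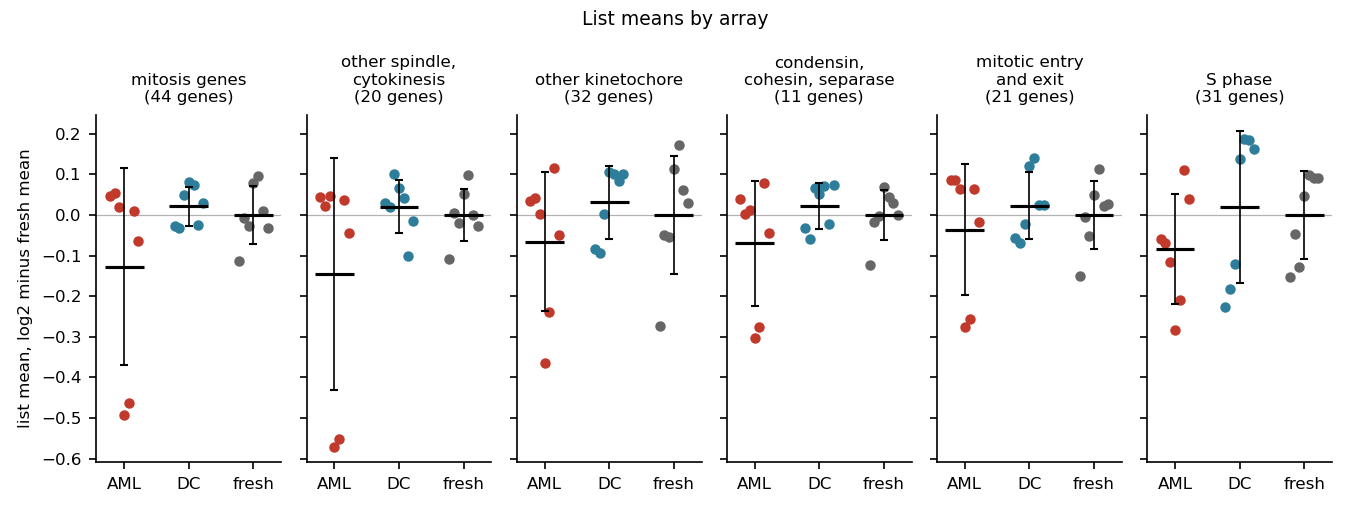
List mean of each array, as log2 level minus the fresh mean averaged over the genes of a list, with AML, DC and fresh medium from left to right and bars for mean and SD over 7 arrays. The 2 lowest AML points of the first 2 panels are replicates 4 and 5, at -0.49 and -0.46 for the mitosis genes and -0.57 and -0.55 for the other spindle genes, and the gap to the other 19 arrays is smaller or absent in the further panels.

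The labelled cell type was checked with marker lists. Of 6 measured CD8 T cell markers 0 were called, and their mean level was 11.02 to 11.21 in AML, 11.02 to 11.25 in DC and 11.02 to 11.19 in fresh arrays. By replicate number it was 11.15 to 11.25 in the 9 arrays of replicates 1 to 3. In the 10 arrays of replicates 4 to 7 other than AML replicates 4 and 5 it was 11.02 to 11.08. Of 3 CD4 T cell markers 1 rose in AML against fresh medium, *Cd4* itself, by 0.79 (SE 0.18, limma adjusted p = 0.0150), and the difference was 0.81 (limma adjusted p = 0.0622) without AML replicates 4 and 5 and 0.62 (limma adjusted p = 0.155) with replicates 4 to 7 alone. *Cd4* had 7.80, 8.64 and 9.03 in AML arrays, 7.56, 7.92 and 8.57 in DC arrays, and 7.25, 7.76 and 8.16 in fresh arrays. All 3 markers were above 0 at a limma unadjusted p under 0.05 in AML against fresh medium (median 0.31), where 15.9% of all genes passed. They also did so in AML against DC medium (median 0.35, 0 called), where 14.3% passed. The mean of these 3, minus the fresh mean, was 0.07 to 0.67 in AML, -0.15 to 0.43 in DC and -0.30 to 0.24 in fresh arrays. It was 0.35 and 0.54 in AML replicates 4 and 5, within the range of the other 5 AML arrays. Both lay above all 10 other arrays of replicates 4 to 7, which ranged over -0.30 to 0.24. The 9 arrays of replicates 1 to 3 ranged over -0.07 to 0.67. Of 4 B cell, 4 NK cell, 10 myeloid and 6 reticular cell markers 0 were called, and the means of replicates 4 and 5 lay within the range of the other 19 arrays. The part of *Cd4*-expressing cells in the mitosis values was not tested.

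The CHR was found both in genes that were low in AML replicates 4 and 5 and in genes that were not. Of the 30 measured genes with a CHR or its variant, 23 were below the fresh range in both arrays and 7 were not, among them *Top2a* and *Mki67*. Of the 7 measured genes with a promoter but neither word, 5 were below in both, namely *Nek2*, *Mad2l1*, *Cenpe*, *Birc5* and *Nusap1*, and 2 were not, *Pttg1* and *Nuf2*. The groups are small, and the counts are given as a description.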

How the data were processed

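The authors deposited log2 values of transcript clusters from 1-colour Affymetrix arrays, computed by RMA with oligo (versions not given) per the submitters' processing notes; the platform and annotation build are not given in the sources used here. RMA gives no separate background call, so detection was not assessed. Of 22203 clusters, 19572 had 1 gene symbol in the platform annotation. For the 55 symbols with several clusters the one with the highest mean was kept, which left 19505 genes, with no filter on level. Differences were fitted with limma 3.58.1 in R 4.3.3 (lmFit and eBayes, 1 fit over 21 arrays without covariates, tested on simulated data), adjusted by Benjamini-Hochberg over all genes and called at an adjusted p under 0.05, two-sided. The 3 groups of 7 share 1 spread per gene, and the number of arrays limits the precision. The genes, lists, motifs and the setting aside of AML replicates 4 and 5 were chosen with earlier results of these data known. Values by group are given for each called gene named, for the gene of each role with the smallest p in AML against fresh medium, and for *Mki67*, *Cdk1*, *Birc5*, *Top2a* and *Aurkb*; other genes are named as examples after their values were seen. Promoter sequences are from RefSeq (GRCm38.p6), matched by symbol. Alternatives were the replicate number as a block, only the 2 groups compared, quantile normalization, median centring, a filter at the 25th percentile, mean of clusters, trend and robust eBayes, array weights, leaving out arrays, and replicates 1 to 3 or 4 to 7, alone or as a term.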

Additional observations from a re-analysis of the deposited data

Results flagged for a closer look

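Within each group of 7 arrays, the gap between an extreme array and its nearest neighbour was compared with Dixon's critical value. Of 132 sets of 1 gene in 1 group, 8 passed, and chance gives about 1 in 20. *Plk1* stood at 11.00 in DC replicate 5, above the other 6, which lay between 10.76 and 10.82. *Pttg1* stood at 8.82 in fresh replicate 5, above the other 6, which lay between 8.49 and 8.60. *Cenpe* stood at 9.32 in DC replicate 6, below the other 6, which lay between 9.60 and 9.67. *Cenpe* stood at 9.44 in fresh replicate 7, below the other 6, which lay between 9.67 and 9.77. *Birc5* stood at 9.54 in DC replicate 5, below the other 6, which lay between 9.63 and 9.68. *Kif15* stood at 9.30 in fresh replicate 1, below the other 6, which lay between 9.57 and 9.74. *Kif18b* stood at 7.69 in DC replicate 7, below the other 6, which lay between 7.90 and 8.04. *Kif4* stood at 7.66 in fresh replicate 1, below the other 6, which lay between 8.25 and 8.68. None of the 8 was an AML array. A gap to the nearest array cannot pass where 2 arrays lie low together, as AML replicates 4 and 5 did in most of these genes, so the absence of AML arrays here says nothing of their spread. The cause was not tested.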

How the results depend on the processing

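The count of called mitosis genes rests on *Cenpa* alone. It was 1 with a further quantile normalization, the filter, the mean of clusters, trend and robust eBayes, a term for replicates 1 to 3 against 4 to 7, and the replicate block. It was 0 with only the AML and fresh arrays (*Cenpa* -0.43, limma adjusted p = 0.110), with median centring (-0.40, adjusted p = 0.0597), with array weights (-0.32, adjusted p = 0.113), without AML replicates 4 and 5 (-0.22, adjusted p = 0.210), with replicates 1 to 3 alone (-0.22, adjusted p = 0.270) and with replicates 4 to 7 alone (-0.59, adjusted p = 0.128). Leaving out 1 array gave 0 to 2 genes lower and 0 higher, the 2 being *Cenpa* with *Ndc80* (without AML replicate 1) or *Hmmr* (without AML replicate 6). The median of AML minus fresh was -0.16 to -0.06 over those fits, 0.017 without AML replicates 4 and 5, 0.084 with replicates 1 to 3 and -0.28 with replicates 4 to 7. In AML against DC medium it was -0.18 to -0.08 with 1 array left out, -0.0076 without AML replicates 4 and 5, 0.051 with replicates 1 to 3 and -0.28 with replicates 4 to 7, and 0 genes were called in each of the settings run. The cause of these changes was not tested.

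In AML against fresh medium 19 of the 44 differences turned sign without AML replicates 4 and 5, all to above 0, 27 with replicates 1 to 3 and 0 to 7 with 1 array left out. The values that follow are for the 11 genes described with values by group, and none of these signs turned in a comparison where the gene was called. In AML against fresh medium *Aurkb* was at 0.049 and *Mki67* at 0.042 without AML replicates 4 and 5, and *Bub1*, *Aurkb* and *Mki67* were at 0.025, 0.13 and 0.088 with replicates 1 to 3. *Mki67* ranged over -0.062 to 0.0039 with 1 array left out. In AML against DC medium *Mki67* was at 0.019 without AML replicates 4 and 5. *Cdk1*, *Aurka*, *Bub1*, *Aurkb* and *Mki67* were at 0.011, 0.020, 0.094, 0.13 and 0.0081 with replicates 1 to 3, and *Top2a* was at -0.071 with replicates 4 to 7. In DC against fresh medium *Kif22* and *Mki67* were at -0.013 and -0.00819 with quantile normalization. *Aurka* and *Hmmr* were at 0.0027 and 0.0067 with median centring, and *Aurka* was at 0.00076 with array weights. *Ccnb2*, *Cdk1*, *Cenpa* and *Hmmr* were at 0.041, -0.053, 0.018 and 0.084 with replicates 1 to 3, and *Aurka*, *Kif22* and *Mki67* at 0.022, -0.00227 and -0.020 with replicates 4 to 7. With 1 array left out, *Aurka* ranged over -0.053 to 0.00014, *Hmmr* over -0.057 to 0.0072, *Kif22* over -0.039 to 0.041 and *Mki67* over -0.015 to 0.042.

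Replicate numbers were not taken as pairing the arrays, as the labels do not say that they do. Deviations of same-numbered arrays correlated above 0.1 in 3 of 7 pairs for AML and fresh (r of -0.11 to 0.21). It was 6 of 7 for DC and fresh (0.04 to 0.36) and 4 of 7 for AML and DC (0.07 to 0.27). An array correlated best with its own number in 4, 2 and 4 of 7. These values do not settle whether the numbers pair arrays, so the replicate block is given as an alternative. With the replicate block, 521 genes of all were called higher and 491 lower in AML against fresh medium, against 253 and 288 without it. In AML against DC medium 375 were higher and 409 lower with the block, against 220 and 246. In DC against fresh medium 1 was called, against 0. A term for replicates 1 to 3 against 4 to 7 alone gave 529 higher and 497 lower in AML against fresh medium, and 378 and 419 in AML against DC medium. The labels name no batch for this division. *Cenpa* alone of the 44 was called with the block, *Fzr1* was not (limma adjusted p = 0.0621), and *Ccng2* and *Cdk6* were (0.0333 and 0.0240). Of the marker lists, *Klrc1* of NK cells was called with replicates 1 to 3 alone (1.20, limma adjusted p = 0.00923). Over all genes, median centring gave 289 higher and 197 lower in AML against fresh medium. With only the 2 groups in the fit 114 and 132 were called. Without AML replicates 4 and 5 it was 55 and 56. With replicates 1 to 3 it was 220 and 154, and with replicates 4 to 7 it was 13 and 19. Signal over background was not assessed, so low levels may be compressed. *Cdc25c* and *Pkmyt1*, with lowest values of 6.34 and 5.61, lay above the array medians of 5.23 to 5.40, which are not a detection limit.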
